A study of Mus musculus with 24 samples.

Results

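The slow-fibre contractile and calcium-handling genes described here are 10 genes listed by name: Tnni1, Tnnt1, Tnnc1 and Tpm3 of the thin filament, the myosin light chains Myl2 and Myl3, the Z-disc gene Myoz2, and Atp2a2, Casq2 and Pln of the calcium store. They were found by Ensembl identifier among the 54532 genes counted, and all 10 had enough reads to be tested in every comparison. Reads were counted in 24 libraries of left gastrocnemius muscle from wild-type C57/BL6 mice, 4 libraries in each of 6 groups. Female and male controls were sedentary and had 2 saline injections of 20 µl at pH 7.2 ± 0.1, given 5 days apart in that muscle. Female and male sedentary pain groups had the same schedule at pH 5.0 ± 0.1, with 6 min of electrically evoked contraction directly ahead of the second dose. Female and male active pain groups went through this same pain model after 8 weeks with a running wheel. Every library carries the label 24hr. Both pain groups of a sex are set against the same controls, no group ran without pain, and the controls had neither acid nor contraction, so these factors cannot be told apart. The comparisons ask how muscle RNA differs with this pain model in each sex, and whether earlier activity and sex alter that difference.

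Troponin C, encoded in slow muscle by Tnnc1, binds the calcium released at each contraction and, through troponin I (Tnni1) and troponin T (Tnnt1), shifts tropomyosin (Tpm3) on the actin filament so that myosin can bind. Slow, oxidative fibres use these isoforms together with the regulatory light chain Myl2, the essential light chain Myl3 and the slow myosin heavy chain Myh7. Fast fibres, which dominate the mouse gastrocnemius, use separate genes for most of these proteins. Calcium is pumped back into the store by SERCA2 (Atp2a2) in slow fibres, held there by calsequestrin 2 (Casq2), and the pump is held back by phospholamban (Pln); all of these are also major heart genes. Tpm3 and Atp2a2 also encode isoforms made in many non-muscle cells, which gene-level counts do not separate.

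The libraries held 17612139 to 34039699 counts, and 2.75% to 12.6% of them fell on the 37 mitochondrial genes. The 9 skeletal muscle markers, which include Acta1, Ckm and Myh4, summed to 71972 to 160812 CPM in a library, where CPM are normalised read counts, scaled to each library's size. Of 9 heart markers, Nppa had at most 3 counts, Myl7 at most 1, Ryr2 at most 6, Mybpc3 at most 11, Nppb at most 26, Myh6 at most 58 and Tnni3 at most 132 in any library. Tnnt2 had 44 to 164 counts and Myl4 83 to 615, and the whole list summed to 5.58 to 31.5 CPM. Some libraries stood apart from their group. On the first principal component of log2 CPM over 15103 genes, which held 57.4% of the variance, male sedentary pain replicate 1 lay at 93.3 and the other 3 of that group between -51.0 and -26.1. Male active pain replicate 2 lay at 50.5 and the other 3 between -42.1 and -6.16. Female active pain replicate 3 lay at 50.8 and the other 3 between -18.0 and 7.07. Summed CPM of 6 neutrophil markers was 299 in that sedentary library, against at most 2.69 in the rest of its group, 78.0 in that active male library, against at most 8.14, and 112 in that active female library, against at most 47.0. Female sedentary pain libraries lay between 28.6 and 153 on the component, and female controls between -51.6 and -8.98. The labels do not say whether each replicate is a separate animal, so the tests measure the spread between these libraries.

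The sequences before the starts of 7 of these genes are shown. They are RefSeq promoter sequences on GRCm38.p6, 5′ to 3′ on the gene's strand, from 150 bases before the start up to the first base that GENCODE M21 annotates as an exon, with 5 exon bases kept in Tnnt1 and Myoz2 so that the motif is whole. Capitals mark an M-CAT box, a TATA box, a MEF2 site or a CArG box on either strand. The stretches of Tnni1 and Pln hold no marked motif. Those of Myl2 and Tpm3, which hold none either, are not shown. Whether the motifs bear on how the genes varied across libraries was not tested.
Tnni1, plus strand, chr1:135799271-135799401: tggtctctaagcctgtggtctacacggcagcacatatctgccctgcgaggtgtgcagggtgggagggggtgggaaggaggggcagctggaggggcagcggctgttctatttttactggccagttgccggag
Tnnt1, minus strand, chr7:4516000-4516125: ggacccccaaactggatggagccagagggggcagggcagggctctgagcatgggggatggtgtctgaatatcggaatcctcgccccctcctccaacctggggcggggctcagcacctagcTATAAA
Tnnc1, plus strand, chr14:31208162-31208311: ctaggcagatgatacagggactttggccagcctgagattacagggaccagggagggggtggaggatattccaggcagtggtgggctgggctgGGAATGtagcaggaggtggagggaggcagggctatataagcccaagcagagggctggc
Myl3, plus strand, chr9:110763528-110763645: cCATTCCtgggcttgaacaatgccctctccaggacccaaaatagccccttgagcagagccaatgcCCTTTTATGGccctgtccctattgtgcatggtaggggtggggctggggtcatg
Myoz2, minus strand, chr3:123035011-123035137: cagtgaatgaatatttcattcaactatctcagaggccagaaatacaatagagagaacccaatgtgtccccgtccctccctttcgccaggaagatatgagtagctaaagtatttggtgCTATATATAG
Casq2, plus strand, chr3:102086265-102086414: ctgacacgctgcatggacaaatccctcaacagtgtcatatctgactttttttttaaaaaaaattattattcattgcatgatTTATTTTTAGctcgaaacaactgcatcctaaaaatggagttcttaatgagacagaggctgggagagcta
Pln, plus strand, chr10:53337536-53337666: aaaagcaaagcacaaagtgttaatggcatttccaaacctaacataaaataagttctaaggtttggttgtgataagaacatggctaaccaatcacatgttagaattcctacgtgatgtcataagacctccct

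The table of RefSeq promoters held an entry for 9 of the 10 genes, in 12 windows, and Atp2a2 had none. In the 250 bases before each start, an E-box (CANNTG) was found in 12 of the 12 windows, and in 66.2% of all 32851 mouse windows of this length. An M-CAT box (CATTCC) was found in 2 of the 12, those of Tnnc1 and Myl3, against 12.6% of all windows. A TATA box (TATAAA) was found in 3, those of Tnnt1, Pln and the second Myl2 start, against 12.4%. MEF2 sites, matched by their degenerate consensus, were found in 2, those of Casq2 and Myoz2, against 2.92%, and a CArG box in 1, that of Myl3, against 1.47%. The MEF2 site of Myoz2 began 33 bases before the start and that of Casq2 69 bases before it. These are letter matches and not measured binding.

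Tnni1 (ENSMUSG00000026418, chromosome 1, 135779434 to 135810989, plus strand, GRCm38), the slow inhibitory troponin, varied most inside the control and active pain groups. Its 4 female control libraries had 10.2, 40.1, 83.9 and 19.3 CPM, the female sedentary pain libraries 14.6, 24.4, 11.2 and 9.15 CPM, and the female active pain libraries 2.30, 28.1, 246 and 88.1 CPM, in replicate order. Male controls had 16.3, 8.57, 0.305 and 22.4 CPM, male sedentary pain 15.02, 4.52, 6.63 and 7.21 CPM, and male active pain 0.431, 7.08, 0.342 and 4.31 CPM. The active females thus held both a library below all other females and the highest of all 24, and no group was separate from the one next to it in order of means. Tnnt1 (ENSMUSG00000064179, chromosome 7, 4504570 to 4516382, minus strand), the tropomyosin-binding troponin, followed the same libraries. Among females the control mean was 80.2 ± 60.7 CPM (SD, n = 4) and the active pain mean 191 ± 225 CPM, while the sedentary pain libraries lay between 17.2 and 48.8 CPM. The male means were 22.3 ± 16.5 CPM in controls, 17.8 ± 9.72 CPM in sedentary pain and 6.29 ± 6.92 CPM in active pain. Tnnc1 (ENSMUSG00000091898, chromosome 14, 31208312 to 31211729, plus strand), the calcium sensor, ranged from 0.308 CPM in male active pain replicate 3 to 422 CPM in female active pain replicate 3. Each of the 3 troponin genes had the order female active pain, female control, female sedentary pain, male control, male sedentary pain, male active pain by mean, with 0 of 5 neighbouring groups free of overlap.

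Tpm3 (ENSMUSG00000027940, chromosome 3, 90072649 to 90100902, plus strand), slow tropomyosin, was the only thin-filament member with a higher mean in female sedentary pain than in female controls. Female controls had 37.5, 102, 177 and 70.5 CPM, female sedentary pain 65.6, 141, 148 and 247 CPM, and female active pain 31.6, 92.5, 472 and 236 CPM. The 3 female groups overlapped throughout. Male means were 42.8 ± 18.7 CPM in controls, 59.8 ± 50.8 CPM in sedentary pain and 38.6 ± 20.97 CPM in active pain (SD, n = 4). The gene has a near copy, Tpm3-rs7 on chromosome 14, at 1.76 to 24.8 CPM, and reads may be split between them.

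Myl2 (ENSMUSG00000013936, chromosome 5, 122100951 to 122113472, plus strand), the slow and ventricular regulatory light chain, had the largest ratio of highest to lowest library of the 10 genes. Female controls had 77.4, 177, 241 and 43.5 CPM, female sedentary pain 71.3, 47.8, 26.8 and 19.7 CPM, and female active pain 14.1, 140, 489 and 211 CPM. Male controls had 65.6, 27.6, 6.04 and 48.7 CPM, male sedentary pain 39.5, 35.5, 24.6 and 29.01 CPM, and male active pain 1.72, 36.2, 0.171 and 9.89 CPM. The lowest of these values rests on 5 reads and the highest on 12683. Myl3 (ENSMUSG00000059741, chromosome 9, 110741861 to 110769798, plus strand), the slow essential light chain, had a female control mean of 141 ± 84.7 CPM (SD, n = 4), against 43.6 ± 23.6 CPM with sedentary pain and 223 ± 184 CPM with active pain. In males these 3 means were 68.8 ± 47.5 CPM, 53.0 ± 14.1 CPM and 27.2 ± 42.7 CPM. Male active pain replicate 2 alone held 90.5 CPM of it, and the other 3 libraries of that group 2.41, 0.342 and 15.7 CPM. Myoz2 (ENSMUSG00000028116, chromosome 3, 123006206 to 123035015, minus strand) encodes calsarcin-1, a Z-disc protein that binds calcineurin. Its female means were 73.3 ± 43.4 CPM for controls, 29.5 ± 15.1 CPM for sedentary pain and 93.7 ± 49.0 CPM for active pain (SD, n = 4). Its male means were 31.9 ± 18.0, 29.6 ± 8.99 and 17.6 ± 21.1 CPM in the same order.

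Atp2a2 (ENSMUSG00000029467, chromosome 5, 122453513 to 122502225, minus strand), the slow calcium pump, had 75.7, 219, 187 and 80.0 CPM in female controls, 84.8, 51.6, 82.9 and 57.8 CPM in female sedentary pain, and 24.99, 171, 476 and 294 CPM in female active pain. In males the controls had 140, 68.8, 43.0 and 117 CPM, the sedentary pain libraries 63.8, 78.5, 69.4 and 78.5 CPM, and the active pain libraries 36.7, 49.7, 40.1 and 59.7 CPM. All 4 active male libraries lay below the 4 sedentary pain males. Casq2 (ENSMUSG00000027861, chromosome 3, 102086415 to 102146514, plus strand), the calcium-binding protein of the store, had 19.6, 31.0, 37.1 and 13.2 CPM in female controls, 20.5, 9.11, 10.7 and 8.37 CPM in female sedentary pain, and 15.2, 32.2, 38.98 and 42.3 CPM in female active pain. Between the 2 female pain groups, sedentary pain replicate 1 and active pain replicate 1 were the libraries that overlapped. Female control replicates 1 and 4 also lay below sedentary pain replicate 1. Male means of Casq2 were 14.4 ± 3.38 CPM in controls, 11.6 ± 3.86 CPM in sedentary pain and 12.4 ± 3.10 CPM in active pain (SD, n = 4).

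Pln (ENSMUSG00000038583, chromosome 10, 53337667 to 53345987, plus strand), the inhibitor of the pump, was the least abundant member, with 6 to 45 reads in a library. Female controls had 0.867, 1.89, 0.625 and 0.978 CPM, female sedentary pain 0.567, 0.3504, 0.357 and 0.283 CPM, and female active pain 1.03, 0.812, 1.19 and 1.22 CPM. All 4 female sedentary pain libraries lay below the 8 other female libraries. Male controls had 0.853, 0.525, 0.645 and 0.661 CPM, male sedentary pain 0.485, 0.904, 0.845 and 0.692 CPM, and male active pain 0.431, 0.760, 0.411 and 0.396 CPM. The gene shares 1644 exon bases with Gm47644 and 141 with Cep85l, both on the opposite strand; Gm47644 had 0 to 9 counts and Cep85l 156 to 1239, and since the use of strand in counting is not given in the sources used here, some Pln reads may belong to them.

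**Figure D1:**
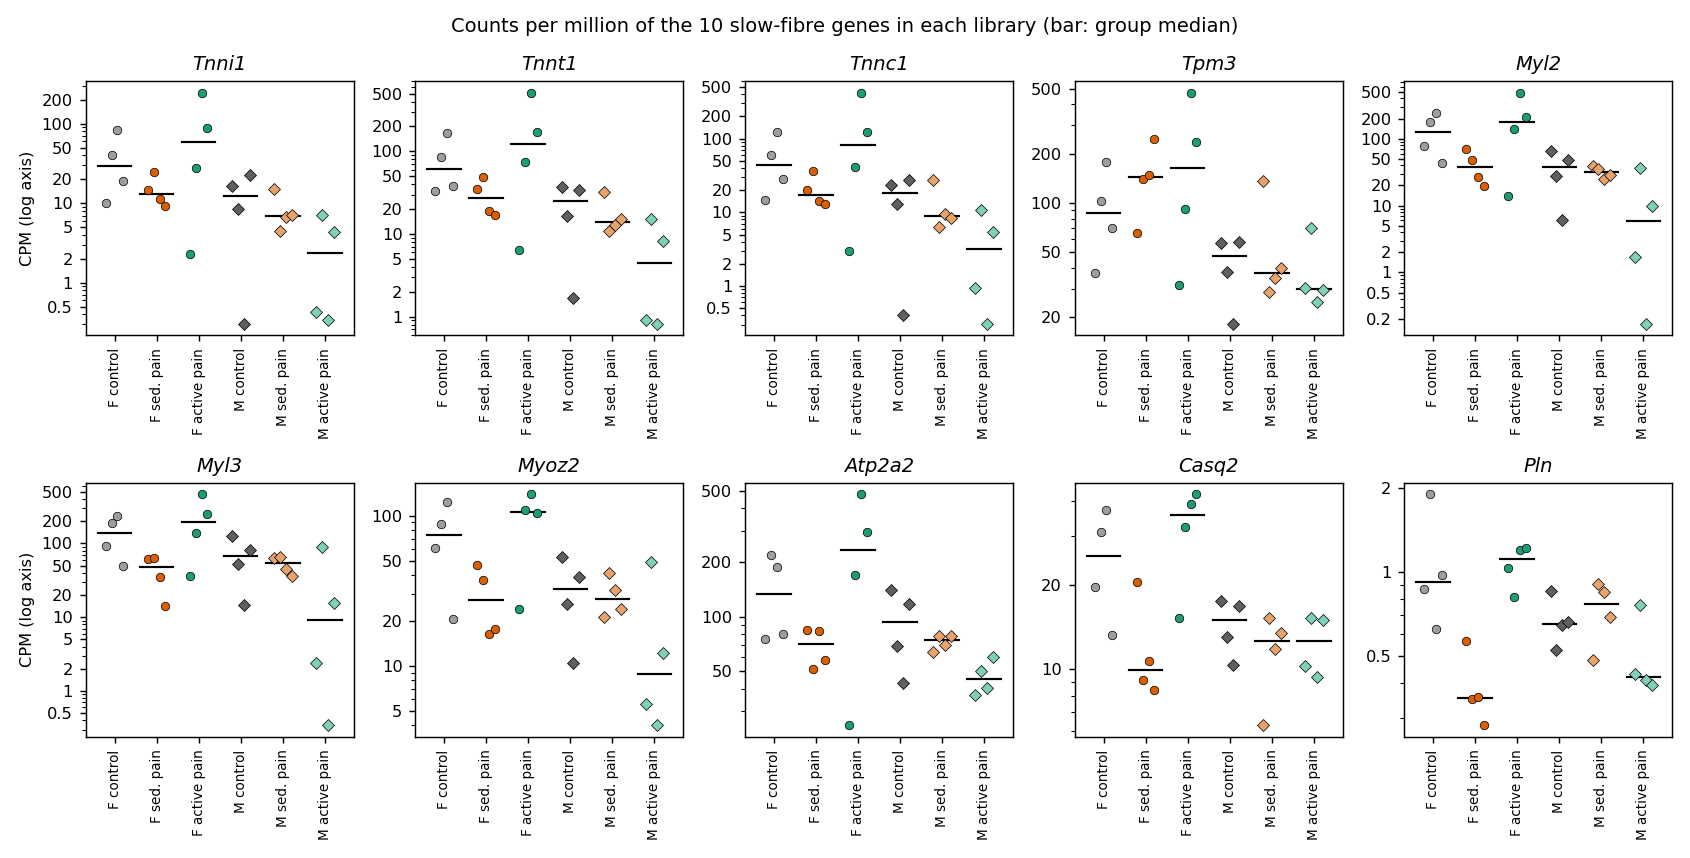
CPM of each gene on a log axis for the 6 groups (F female, M male, sed. sedentary), with 1 point per library in replicate order and a bar at the group median. The troponins and light chains are narrowest, in each sex, in the sedentary pain group and overlap between neighbouring groups, and for Pln the 4 female sedentary pain libraries lie between 0.283 and 0.567 CPM, below the other females.

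Per kilobase of exon, Myl3 was the most abundant of the 10 genes, at a mean of 45.4 CPM per kilobase over the 24 libraries, followed by Tnnc1 at 41.3, Myl2 at 40.2, Tnnt1 at 26.3, Atp2a2 at 18.2, Tpm3 at 16.3, Myoz2 at 13.4, Tnni1 at 7.76, Casq2 at 6.58 and Pln at 0.268. Parts of this order rested on 1 library: without female active pain replicate 3 Tnnc1 had 25.5, below Myl2 at 31.1, and Tnni1 5.12, below Casq2 at 6.25. Tnnt1 went to 17.3 without it. By the median over the 24 libraries Tnnt1 had 11.5, below Atp2a2 at 12.7. Female active pain replicate 3 held the highest level of 8 of the 10 genes, and male active pain replicate 3 the lowest of 5. The ratio of highest to lowest library was 2856 for Myl2, 1369 for Tnnc1, 1358 for Myl3, 806 for Tnni1 and 626 for Tnnt1. It was 34.6 for Myoz2, 25.8 for Tpm3, 19.1 for Atp2a2, 6.76 for Casq2 and 6.70 for Pln. By the mean over groups, female active pain ranked first for 9 of the genes and female control for Pln. Some of these ranks rested on 1 library. Without female active pain replicate 3, the log2 fold change of female active pain against control was -0.05 for Tnnc1 and -0.16 for Myl2. That of Tpm3 against female sedentary pain was then -0.34. Without female control replicate 2, Pln in female active pain against control had 0.35.

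Troponins and light chains differed widely between libraries of the same group. The within-group SD of log2 CPM was 2.02 for Tnnc1, 1.94 for Tnni1, 1.78 for Myl2, 1.73 for Tnnt1 and 1.72 for Myl3, against a median of 0.36 over 15103 genes. It was 1.07 for Myoz2, 1.04 for Tpm3, 0.91 for Atp2a2, 0.55 for Casq2 and 0.39 for Pln. Only 35 of the 15103 genes had a larger SD than Tnnc1. The slow myosin gene Myh7, at 2.52, was exceeded by 6 genes. The fast counterparts, the genes that supply the same proteins in fast fibres, had SDs from 0.20 (Mylpf) to 0.36 (Tnnc2). Tnni2 had 0.26 and Tnnt3 0.23 in the same libraries. Of the other fast genes, Myh2 of the type 2A fibres had 1.44.

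**Figure D2:**
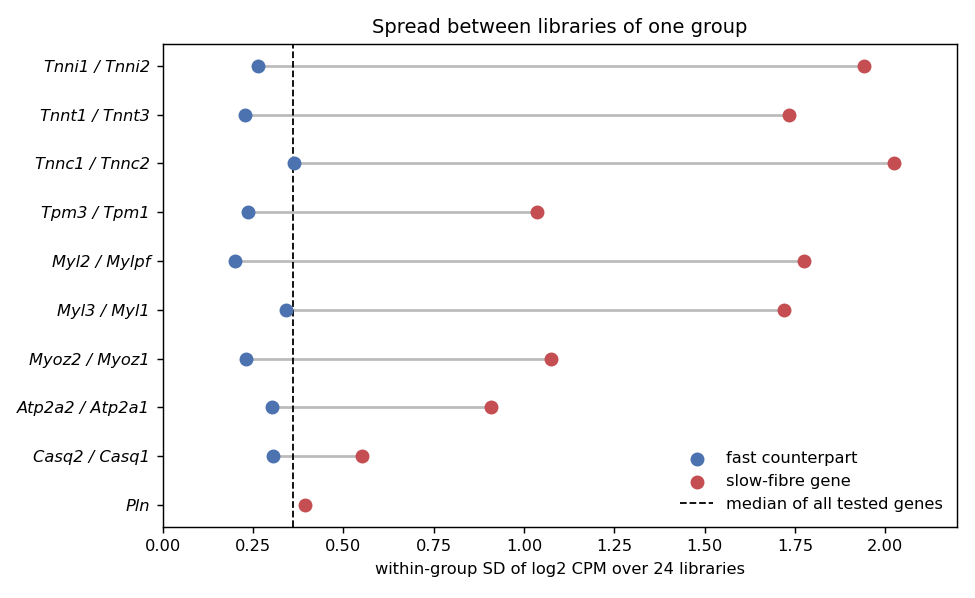
Within-group SD of log2 CPM, pooled over the 6 groups of 4 libraries, for each slow-fibre gene (red) and its fast counterpart (blue), with a dashed line at the median of all tested genes. In each of the 9 pairs the slow gene has the larger SD; Pln has no pair.

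The 3 slow troponins moved nearly as 1 unit. After each group's mean was removed, log2 CPM of Tnni1 and Tnnc1 had a Pearson's r of 0.993 over the 24 libraries, Tnni1 and Tnnt1 0.989, and Tnnt1 and Tnnc1 0.984. Myl2 and Myl3 had 0.976, and Myl2 and Myoz2 0.910. Among the 10 pairs of troponins and light chains the lowest r was 0.812. Tpm3 had 0.815 with Tnnc1 but 0.267 with Casq2. Pln had a median r of 0.275 with the 9 other genes, from -0.051 with Tpm3 to 0.437 with Casq2. These are descriptions: all genes of a library share its depth and its piece of tissue, and the small counts of Pln add counting noise. Each library's piece of muscle was a bulk sample, so fewer slow fibres and less slow-fibre RNA per fibre cannot be told apart.

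**Figure D3:**
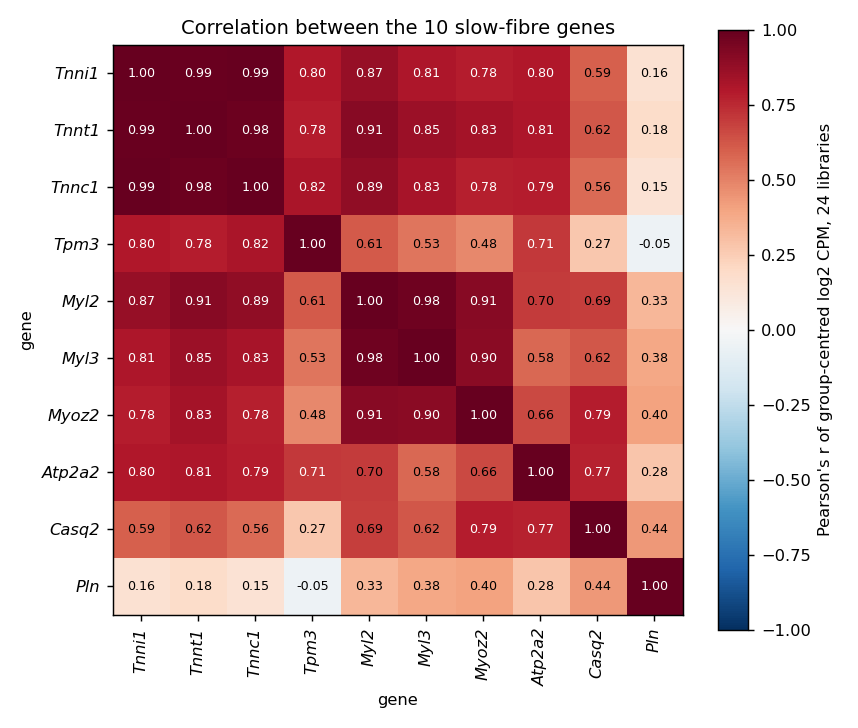
Pearson's r between group-centred log2 CPM of each pair of the 10 genes over 24 libraries, coloured from -1 (blue) to 1 (red). The troponin and light chain block has r of 0.812 or more, and the row of Pln is the palest.

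The genes whose pattern was most like the mean pattern of the 10, among 11392 genes ranked by the same r, were Myh7 (0.901), the heart-type lactate dehydrogenase subunit Ldhb (0.849), the RNA-binding protein gene Khdrbs3 (0.835), the palmitoyltransferase gene Zdhhc23 (0.828), the cholesterol ester hydrolase gene Nceh1 (0.823), the M-band gene Myom3 (0.822), Tiam2 (0.817) and the sodium pump regulator Fxyd6 (0.815). Myh7 was the only gene above 0.9, and 12 genes were above 0.8. Myh7 had 5.05, 131, 779 and 334 CPM in female active pain and 103, 45.5, 0.136 and 93.1 CPM in male controls, with its extremes in the libraries that were extreme for Tnni1. Mb, the oxygen store myoglobin, had 0.775 and Myh2 0.717. The 9 fast counterparts all had a negative r, from -0.422 for the fast pump Atp2a1 to -0.130 for Myl1.

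**Figure D4:**
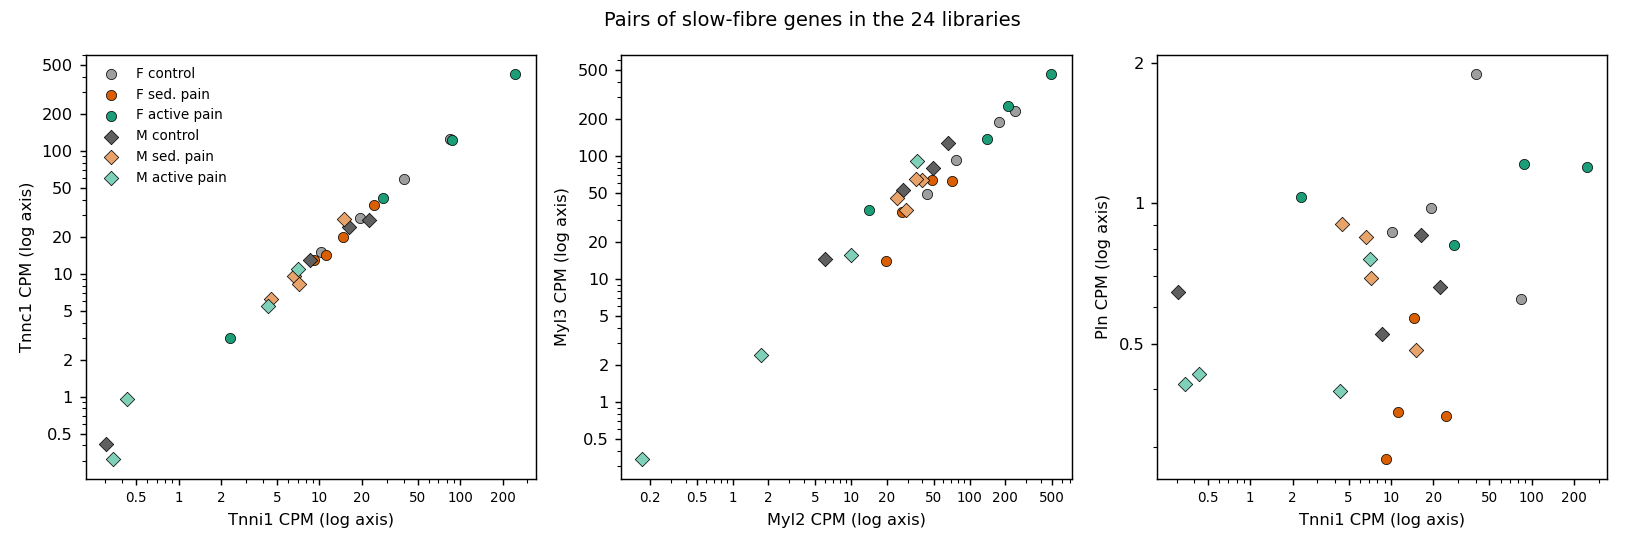
CPM of 3 pairs of genes on log axes, with 1 point per library (circles female, diamonds male). Tnni1 against Tnnc1 and Myl2 against Myl3 lie along a line over the whole range, and Tnni1 against Pln does not.

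In females, sedentary pain was set against control first. Pln fell, by 1.49 ± 0.37 on the log2 scale (SE, edgeR adjusted p = 0.0129), and it was the 1 member of 10 called. In that comparison 33.5% of all 14511 tested genes were called at an adjusted p under 0.05, and 13.9% were called lower, so a count of 1 is below the background share. Pln passed the low-count filter through the other groups: its level of 0.397 CPM, unscaled, was reached by 4 of 4 control and 4 of 4 active pain libraries but by 2 of 4 sedentary pain libraries. With no filter the call was kept (-1.51, adjusted p = 0.0192). At an unadjusted p under 0.05 there were 4 members, against 47.6% of genes. The Pln values of the groups did not overlap, which held in this direction for 11% of tested genes. Of the other 9 genes, 8 had negative log2 fold changes and Tpm3 a positive 1 of 0.61 ± 0.70 (adjusted p = 0.508). The nearest to the threshold were Casq2 at -1.07 ± 0.41 (adjusted p = 0.0597), Myl3 at -1.72 ± 0.72 (adjusted p = 0.0800) and Myoz2 at -1.33 ± 0.59 (adjusted p = 0.0963). Tnni1 had -1.40 ± 0.99, with 2 SE reaching from -3.37 to 0.57. Without female control replicate 3 the values of the troponins were -0.67 for Tnni1, -0.75 for Tnnc1 and -0.82 for Tnnt1. The median over the 10 genes was -1.42, against -0.02 over all tested genes. The fall of Pln had a log2 fold change of -1.55 (adjusted p = 0.173) in replicates 1 and 2 alone and of -1.33 (adjusted p = 0.0758) in replicates 3 and 4 alone, a division that follows the number in the library names. With 1 surrogate variable the value for Pln was -0.79 (adjusted p = 0.627), and 0.42% of genes were called. DESeq2 called 4 members, adding Casq2, Myl3 and Myoz2, and 39.8% of all genes. The count was 3 without female active pain replicate 1 (30.7% of genes), 2 without female sedentary pain replicate 1 (44.9%) and 2 without female control replicate 4 (21.3%).

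Markers of other cells moved in the same comparison. All 10 macrophage and monocyte markers rose, with a median log2 fold change of 4.46, and their summed level was 432 to 4733 CPM in female sedentary pain against 86.6 to 190 CPM in female controls. The 5 tested neutrophil markers of 6 rose, with a median of 5.89, and 5 of 6 adipocyte markers fell, with a median of -3.01. Summed adipocyte markers were 305, 164, 3812 and 2031 CPM in the 4 control libraries and 66.5 to 487 CPM in female sedentary pain, so replicates 1 and 2 of the controls lay inside the range of the pain group. Of 9 skeletal muscle markers 3 fell and Des rose, and their summed level was 100946 ± 29499 CPM (SD, n = 4) against 130123 ± 25112 CPM. Of 5 endothelial markers Kdr (-0.93 ± 0.28, adjusted p = 0.0285) and Cdh5 (-0.73 ± 0.20, adjusted p = 0.0177) fell, and of 9 tested markers of regenerating muscle Myog rose by 1.36 ± 0.26 (adjusted p = 0.00413). Of 5 smooth muscle markers, a tissue that also makes Pln, Myh11 fell by 1.12 ± 0.23 (adjusted p = 0.00619) and all 5 values were negative, with a median of -0.26. Of 5 fibroblast markers Col1a1 rose by 1.09 ± 0.29 (adjusted p = 0.0166). Mitochondrial genes took 2.75% to 8.22% of counts in female sedentary pain and 8.59% to 11.02% in female controls, without overlap. Of 9 heart markers 3 could be tested, and Myh6, the heart myosin gene and close relative of Myh7, fell by 2.98 ± 0.93 (adjusted p = 0.0310), from 0.428 to 1.48 CPM in controls to 0 to 0.234 CPM. It passed the filter only through the other female groups, since 0 of 4 sedentary pain libraries reached the filter's level, so its test here and against active pain is no support for a change in heart markers. The other two had -0.24 ± 0.38 (Tnnt2, adjusted p = 0.647) and 0.27 ± 0.32 (Myl4, adjusted p = 0.513). The part of these cells and of the mitochondrial share in the fall of Pln was not tested.

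Active against sedentary pain in females gave 2 called members of 10, both higher in the active animals, where 11.9% of tested genes were called and 2.51% were called higher. Pln rose by 1.45 ± 0.37 (SE, edgeR adjusted p = 0.0333) without overlap, which held in this direction for 5.42% of genes. As before, it passed the low-count filter through the other female groups, with 2 of 4 sedentary pain libraries at the filter's level. Its call ended without the filter and is weak support for a rise. Casq2 rose by 1.42 ± 0.41 (adjusted p = 0.0446), with the groups overlapping. Both calls ended with no filter on low counts (adjusted p = 0.0579 for Pln and 0.0768 for Casq2), with only the groups compared (0.0877 for both) and with 1 surrogate variable (0.964 for both), and over all alternatives Pln was called in 15 of 26 and Casq2 in 13 of 27. With the replicate number as a covariate the call of Casq2 ended and Pln alone was called, with 11.2% of genes. This comparison uses the same 4 sedentary pain libraries as the one before. Of the 10 genes, most of which moved together and are not independent, 9 had an unadjusted p under 0.05, against 32.2% of tested genes. All 10 log2 fold changes were positive, with a median of 2.10 against 0.01 over all tested genes. Those of the troponins were the largest, at 2.85 ± 1.08 for Tnnc1 (adjusted p = 0.0965), 2.69 ± 0.97 for Tnnt1 (adjusted p = 0.0829) and 2.64 ± 1.02 for Tnni1 (adjusted p = 0.102), and their errors were the largest too. Myl2 had 2.38 ± 0.84 (adjusted p = 0.0800), Myl3 2.38 ± 0.73 (adjusted p = 0.0545), Atp2a2 1.82 ± 0.66 (adjusted p = 0.0843), Myoz2 1.69 ± 0.60 (adjusted p = 0.0803) and Tpm3 0.49 ± 0.70 (adjusted p = 0.638). In the same contrast 8 of 10 macrophage markers fell, with a median of -2.60 over the list, whose summed level was 213 to 445 CPM in female active pain. Of the 3 tested heart markers Myh6 rose by 3.48 ± 0.91 (adjusted p = 0.0355), with Tnnt2 at 0.26 ± 0.38 (adjusted p = 0.649) and Myl4 at -0.13 ± 0.32 (adjusted p = 0.794). The part of those cells in these changes was not tested.

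Single libraries moved these values. Female active pain replicate 3 stood apart from its group over all genes and in neutrophil markers, as given above, and their part in its levels was not tested. Without female active pain replicate 3, the log2 fold change fell to 1.41 for Tnni1, 1.41 for Tnnc1, 1.47 for Tnnt1, 1.55 for Myl2 and 1.23 for Atp2a2, and that of Tpm3 turned to -0.34. The count of called members was 0 without female active pain replicate 1, 2 or 4 and without female sedentary pain replicate 4, where 0% of all genes were called too, and without female sedentary pain replicate 3, where 3 of 14679 genes were. It was also 0 without female active pain replicate 3 and without female sedentary pain replicate 2, where 10.4% and 11.9% of genes were still called. Without female sedentary pain replicate 1 it was 4, with 4316 of 14865 genes called. Omitting female control replicate 1 or 2, which take part in the estimate of the spread only, left Pln alone (8.61% and 9.02% of genes). In replicates 1 and 2 alone 0 members and 0% of genes were called, with 0.67 for Casq2 (adjusted p = 0.589) and 0.94 for Pln (adjusted p = 0.510). In replicates 3 and 4 alone 9 members were called, all but Tpm3, and 2306 of 15401 genes, with 2.10 for Casq2 (adjusted p = 0.0268) and 1.90 for Pln (adjusted p = 0.0320). DESeq2 on all libraries called the same 9 members and 20.7% of all genes, against 11.9% with edgeR.

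**Figure D5:**
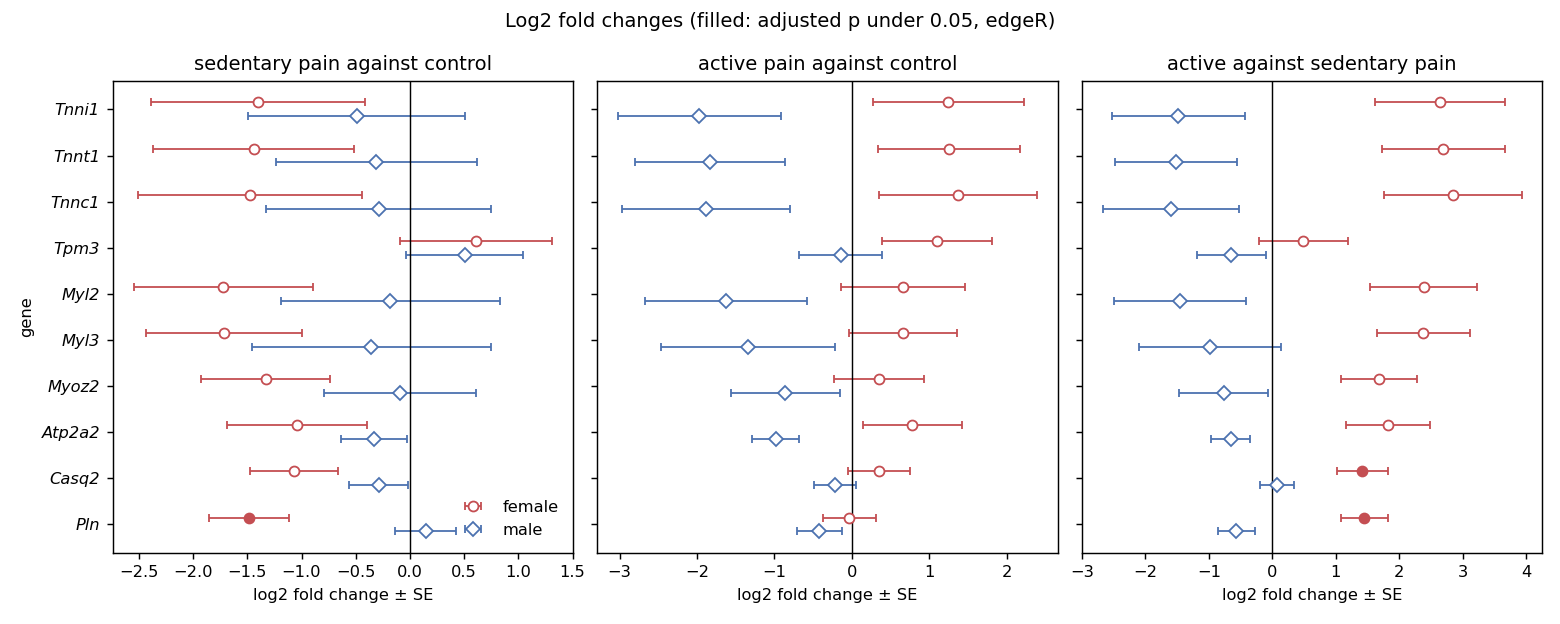
Log2 fold change with its SE for the 10 genes in 3 comparisons, females as red circles and males as blue diamonds, filled where the edgeR adjusted p was under 0.05. Filled points are Pln in female sedentary pain against control, and Casq2 and Pln in female active against sedentary pain.

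Active pain against control in females called 0 of the 10 genes and 0% of the 14511 tested genes with edgeR. At an unadjusted p under 0.05 there were 0 members, against 7.03% of genes, and DESeq2 called 0 members and 0.861% of genes. The log2 fold changes ran from -0.03 ± 0.34 for Pln to 1.37 ± 1.02 for Tnnc1, 9 of them positive, with a median of 0.72. Those of the troponins and light chains moved with single libraries. Without female control replicate 3 the values were 1.98 for Tnni1, 2.11 for Tnnc1 and 1.88 for Tnnt1, and without female active pain replicate 3 the values for Tnni1, Tnnt1 and Myl3 were 0.03, 0.05 and 0.00, and those of Tnnc1 and Myl2 turned to -0.05 and -0.16. Atp2a2 had 0.20 and Tpm3 0.29 without that active library, and the lowest values of Casq2 (0.14) and Myoz2 (0.05) came without female control replicate 4.

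Males gave no call among the 10 genes in any of the 3 comparisons, and 0% of 14404 tested genes were called with edgeR. Sedentary pain against control had 8 negative log2 fold changes, from -0.49 ± 1.001 for Tnni1 to 0.50 ± 0.54 for Tpm3, with 0 members at an unadjusted p under 0.05 against 8.84% of genes. Without male sedentary pain replicate 1, which stood apart over all genes, Tpm3 turned to -0.29, Tnni1 had -0.94 and Tnnc1 went from -0.29 to -0.98. Without male control replicate 4, Tnni1 turned to 0.03 and Tnnc1 to 0.11. Without male control replicate 1, Myl2 turned to 0.26, Myl3 to 0.14, Myoz2 to 0.27 and Tnnt1 to 0.07. Active pain against control had 10 negative values, from -1.97 ± 1.05 for Tnni1 to -0.15 ± 0.54 for Tpm3, with a median of -1.16 against -0.00 over all genes. Without male active pain replicate 2, which also stood apart, Myl3 went from -1.34 to -3.48, Myl2 from -1.63 to -3.23 and Tnni1 to -2.80. Without male control replicate 1, Myl3 had -0.84 and Myl2 -1.18, and without male control replicate 4 Tpm3 turned to 0.06. Atp2a2, at -0.98 ± 0.31, was the 1 member with an unadjusted p under 0.05 (0.0078, adjusted p = 0.478), against 7.25% of genes. Active against sedentary pain had 9 negative values and 0 members at an unadjusted p under 0.05, against 0.84% of genes. Atp2a2 had -0.66 ± 0.31 there (adjusted p = 0.9999) without overlap between the groups, which held in this direction for 0.208% of tested genes. DESeq2 called 0 members in all 3, and 1.87%, 0.882% and 0% of genes. The 10 macrophage and monocyte markers were all higher in both male pain groups than in male controls, with 0 called by edgeR. Their median log2 fold change was 2.58 with sedentary pain and 2.26 with active pain. The 4 tested neutrophil markers had medians of 5.10 and 3.58. The part of those cells in the members' values was not tested. Without male active pain replicate 2 the log2 fold change against male sedentary pain went from -1.45 to -3.05 for Myl2 and from -0.98 to -3.12 for Myl3, and the count of calls stayed at 0. Without male sedentary pain replicate 1, Tpm3 in that comparison turned from -0.65 to 0.14 and Tnnc1 went from -1.59 to -0.90.

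The difference between the sexes was tested as an interaction over all 24 libraries and 15103 genes, as male change minus female change. No member passed with edgeR in any of the 3 interactions, where 0% of genes were called. For active against sedentary pain, 9 of 10 members, most of which moved together and are not independent, had an unadjusted p under 0.05, against 14.7% of genes. Tpm3 was the exception, and all 10 values were negative, from -4.40 ± 1.60 for Tnnc1 to -1.10 ± 0.94 for Tpm3. Tnnc1 had -3.00 without female active pain replicate 3 and -5.38 without male active pain replicate 2. Tpm3 had -0.31 without male sedentary pain replicate 1. Pln had the smallest unadjusted p of the 10, 0.000367, at -1.99 ± 0.47 (adjusted p = 0.228). DESeq2 called Pln there, and 0.881% of genes. Without male sedentary pain replicate 1, the library that stood apart, 3 members passed (Atp2a2, Casq2 and Pln), with 14.1% of genes. Without female sedentary pain replicate 1 Pln alone passed, with 4.04% of genes. Atp2a2, Myoz2 and Pln passed in replicates 3 and 4 alone, with 7.71% of genes, and 0 members passed in replicates 1 and 2 alone. For sedentary pain against control 1 member, Pln at 1.60 ± 0.46, had an unadjusted p under 0.05 (adjusted p = 0.432), against 9.57% of genes, and for active pain against control 3 had, against 2.03%. DESeq2 called 0 members in both, and 0.0993% and 0.0199% of genes. Between male and female controls 0 of 10 genes were called by either tool, with 2.83% of genes called by edgeR and 4.77% by DESeq2. All 10 log2 values were lower in males, from -1.87 ± 0.99 for Myl2 to -0.61 ± 0.53 for Atp2a2, and Casq2 (-0.81 ± 0.36) and Pln (-0.69 ± 0.32) had an unadjusted p under 0.05, against 14.9% of genes. Tnni1 went from -1.69 to -0.96 without female control replicate 3. The 6 adipocyte markers were all lower in male controls too, with a median of -2.29 and 1 called. Of 10 tested markers of regenerating muscle 6 were lower, 2 of them called, and 4 were higher. The part of those cells was not tested.

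Each slow gene was also set against its fast counterpart, as log2 of (CPM + 1) over (CPM + 1), in which the added 1 shrinks the ratio of members that lie under 1 CPM in some libraries. Every slow gene was far below its counterpart: in female controls the mean was -8.69 ± 1.38 (SD, n = 4) for Tnni1 over Tnni2, -6.69 ± 1.25 for Myl2 over Mylpf, -8.04 ± 0.94 for Atp2a2 over Atp2a1 and -5.31 ± 1.15 for Myoz2 over Myoz1. In female sedentary pain the Tnni1 ratio was -9.56 ± 0.18, so its libraries differed far less than those of the controls. Of 54 exact two-sided permutation tests, 9 pairs in 6 comparisons, 0 had an exact p under 0.05 and 0 passed after Benjamini-Hochberg adjustment. The smallest was 0.0571, for Tnni1 over Tnni2 in male active against sedentary pain (-12.1 ± 1.37 against -10.6 ± 0.40, adjusted p = 0.617), where 4 against 4 allows no less than 0.0286. With that floor, a ratio could pass adjustment over 54 tests only if many of the tests reached the floor together. That 0 passed therefore does not show that the ratios were unchanged. With limma on the same ratios 0 of the 54 passed over all libraries and 4 passed without replicate 1 of each group, all in female active against sedentary pain: Tnni1 over Tnni2 (adjusted p = 0.0367), Tnnt1 over Tnnt3 (adjusted p = 0.0271), Tnnc1 over Tnnc2 (adjusted p = 0.0271) and Myl2 over Mylpf (adjusted p = 0.0367).

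Other genes of slow fibres and of calcium handling were counted from lists. In female sedentary pain against control, 2 of 9 other slow-fibre genes fell, Myom3 by 1.83 ± 0.63 (adjusted p = 0.0441) and Tead1, an M-CAT-binding factor, by 1.22 ± 0.27 (adjusted p = 0.0084), and 0 rose. Of 12 tested calcium store and pump genes 6 fell and 0 rose, led by the release channel Ryr1 at -0.84 ± 0.23 (adjusted p = 0.0184), Jph1, which ties the store to the surface membrane, at -0.74 ± 0.26 (adjusted p = 0.0472), and sarcalumenin (Srl) at -0.72 ± 0.22 (adjusted p = 0.0290). Of 21 genes of calcineurin signalling and the slow programme 10 fell and 0 rose, led by the calcineurin regulator Rcan2 at -1.06 ± 0.32 (adjusted p = 0.0289), Mef2a at -0.88 ± 0.31 (adjusted p = 0.0458) and the oxidative coactivator Ppargc1a at -0.84 ± 0.28 (adjusted p = 0.0396). Of 15 fast-fibre genes 2 fell, Myh2 at -1.74 ± 0.60 (adjusted p = 0.0438) and Actn3 at -0.67 ± 0.21 (adjusted p = 0.0298). The medians of these lists were -1.18, -0.46, -0.61 and -0.43 in that order, against -0.02 over all tested genes and 13.9% called lower. The 9 skeletal muscle markers had a median of -0.66 in the same comparison, with 8 of 9 values negative. By median, only the other slow-fibre genes lay lower than these markers. In female active against sedentary pain, Rcan2 rose by 1.28 ± 0.33 (adjusted p = 0.0333), and no other gene of the 4 lists was called in that comparison; Myh7 had 3.17 ± 1.05 (adjusted p = 0.0665) and Mb 1.47 ± 0.44 (adjusted p = 0.0511). None of the 4 lists had a call in the male comparisons or in female active pain against control.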

How the data were processed

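RNA of 24 libraries was prepared with a stranded TruSeq kit and sequenced as paired 100-base reads, per the labels' protocols. The deposited values are raw gene counts. The submitters' processing notes name HISAT2 2.1.0, Salmon 0.9.1, featureCounts, DESeq2 1.24.0, mm10 and GRCm38.p6. The annotation release and the strand setting are not given in the sources used here.

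Groups came from the labels. Gene names were matched by identifier to GENCODE M21 (54495 of 54532). Counts were tested with edgeR 4.0.16 (quasi-likelihood F test, TMM, filterByExpr with a minimum count of 10, robust), within each sex on 12 libraries and for sex differences on 24, with Benjamini-Hochberg adjustment over all genes and a threshold of 0.05. The edgeR test gives no SE, so each printed SE is the absolute log2 fold change divided by the square root of the test's F value. Printed CPM share 1 TMM scale over 24 libraries. On simulated counts for female sedentary pain against control, 47% of 2-fold and 98% of 4-fold changes were recovered over 14511 genes. For the male comparison these shares were 46% and 98% over 14404, and 1 and 11 unchanged genes were called in the female and male simulations. Each simulated gene had the spread usual at its abundance, and only genes above 2 CPM were changed. The troponins and light chains spread more widely, with within-group SDs of 1.72 to 2.02 against a median of 0.36, and Pln averaged 0.741 CPM. The recovered shares therefore do not apply to those members. Libraries held 17612139 to 34039699 counts, and 0 pairs were identical. Other tools were R 4.3.3, limma 3.58.1, DESeq2 1.42.0, sva 3.50.0 and SciPy 1.17.1. The alternatives were other scaling, tools, filters, covariates and left-out libraries.

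The members and lists were chosen with earlier results of these data known. All 10 members are named in the levels; from each list with calls, up to 3 called genes with the largest change and a mean of at least 2 CPM are named, and otherwise the 2 most abundant, given here for some lists only. Myh6 and Des were singled out after their values were seen.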

Additional observations from a re-analysis of the deposited data

Results flagged for a closer look

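Each of the 10 genes was examined in each of the 6 groups for a library far from the other 3. Of the 60 groups, 5 held a library whose gap to its nearest neighbour passed Dixon's 95% limit for 4 values. The limit is passed by chance in about 1 in 20 groups only for independent, normally distributed values. Here CPM were not logged, which favours high values, and most of the genes moved together, so the count cannot be judged against that rate. All 5 were the highest of a male pain group. Male sedentary pain replicate 1 had 27.9 CPM of Tnnc1 (gap over range 0.848) and 135.7 CPM of Tpm3 (0.894). Male active pain replicate 2 had 90.5 CPM of Myl3 (0.830), 69.8 CPM of Tpm3 (0.886) and 0.760 CPM of Pln (0.904). These are the same 2 male libraries that lay apart on the first principal component over all genes. Their summed macrophage markers were 797 and 476 CPM, the highest of their groups, and the part of those cells was not tested.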

How the results depend on the processing

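The count of called members moved most in females. For sedentary pain against control, where 1 was called, DESeq2 gave 4 (39.8% of all genes), an offset for GC content and length 3 (35.7%) and all 24 libraries in 1 fit 2 (34.9%). It was 0 with a mean of at least 50 counts (37.1%; Pln was then not tested), in replicates 1 and 2 only (1.67%), in replicates 3 and 4 only (22.4%) and with 1 surrogate variable (0.42%), and leaving out single libraries gave 1 to 3. For active against sedentary pain, where 2 were called, DESeq2 (20.7%) and replicates 3 and 4 only (2306 of 15401 genes) gave 9, and the GC and length offset (1883 of 14511 genes) and all 24 libraries in 1 fit (15.7%) gave 3. A mean of at least 50 counts gave 1 (14.1%), and the count was 0 with no filter on low counts (0.667%) and, with 0% of genes called, in replicates 1 and 2 only, with 1 surrogate variable and with only the groups compared. Leaving out single libraries gave 0 to 4. For the sex difference of active against sedentary pain, where 0 were called, DESeq2 gave 1 and replicates 3 and 4 only gave 3, and leaving out single libraries gave 0 to 3. Of the slow to fast ratios, limma without replicate 1 called 4, all in female active against sedentary pain, and leaving out the other replicates gave 0. The causes were not tested, beyond the fewer samples of some fits. No called value turned its sign. Pln was called in 23 of 26 alternatives for female sedentary pain against control (adjusted p from 0.00314 to 0.627). For active against sedentary pain Pln was called in 15 of 26 (0.00840 to 0.964) and Casq2 in 13 of 27 (0.00587 to 0.964). Signs of members that were not called changed in 17 of 269 values for female active pain against control, in 5 of 216 for active against sedentary pain, in 19 of 269 for male sedentary pain against control and in 8 of 369 for its sex difference; the other comparisons had 0 to 5.

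Same-numbered libraries of different groups shared a mean correlation of 0.109 in females (6 of 12 pairs over 0.1) and 0.0131 in males (4 of 12), so the numbers were not taken to pair them. With a replicate block the count was 1 in female sedentary pain against control (Pln, -1.44, adjusted p = 0.0324, with 25.8% of genes) and 1 in active against sedentary pain (Pln 1.47, adjusted p = 0.0475, and Casq2 1.43, adjusted p = 0.0747, with 11.2%); with the block and the GC and length offset these counts were 1 (37.0%) and 2 (20.1%). The block changed no other count. Counts of 6 to 45 reads limit the precision of Pln.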
